A study of Mus musculus with 24 samples.

Results

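The GDNF receptor family is described here through 4 genes: Gdnf, which encodes the secreted ligand GDNF, Gfra1 and Gfra2, which encode ligand-binding receptors held at the cell surface by a lipid anchor, and Ret, which encodes the receptor tyrosine kinase that these complexes activate. They were 4 of the 55487 genes in the deposited table, were found by gene name, and all 4 were among the 15828 genes that passed the filter on low counts. The genes were chosen by measured values: Gfra1 because it rose with MK-8722, and Gfra2 because it was present in the knockout line alone. The levels behind that choice are those of MK-8722 against DMSO and of knockout against wild type. For these 4 genes they are therefore given as a description with no test. Tests of the 4 genes are given only for torin1 against DMSO, for its difference between the lines and for passage number. Other genes of the pathway and chromosomal neighbours were also tested for MK-8722 and between the lines. Poly(A) RNA was sequenced from mouse embryonic fibroblasts (MEFs), cells grown in culture from mouse embryos, in 24 libraries that form 6 groups of 4. The wild-type (WT) and the AMPK KO line, in which both catalytic subunit genes of the AMP-activated protein kinase (Prkaa1 and Prkaa2) were disrupted, each received the solvent DMSO, the AMPK activator MK-8722 or torin1, an inhibitor of the kinase MTOR. Within every group each library came from another passage, from 12 to 15 in the WT line and from 16 to 19 in the AMPK KO line, so genotype and passage cannot be told apart between the lines.

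GDNF binds GFRA1, and the pair brings RET molecules together and switches on their kinase, which signals through adaptor proteins to the MAP kinase and PI3 kinase pathways. GFRA2 is the preferred receptor of neurturin, GFRA3 of artemin and GFRA4 of persephin, and all of them use RET. The family is best known from enteric and motor neurons and from the kidney, where GDNF made by mesenchyme drives branching of the RET-bearing ureteric bud. GFRA1 can also bind GDNF on cells with little RET, with the adhesion molecule NCAM as partner.

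The libraries held 26900240 to 34192685 estimated counts, and RNA integrity numbers lay between 9.7 and 10. The lines differed in more than the targeted genes. Xist, the RNA of the inactive X chromosome, had 7806 to 15981 counts in WT libraries and only 1 to 3 in the AMPK KO libraries, whereas the Y-linked gene Ddx3y had 0 counts in WT and 2 to 23 in AMPK KO. Summed CPM (counts scaled to library size) of 8 fibroblast markers ran from 7164 to 11857 in WT and lay between 2389 and 3312 in AMPK KO, and the fibroblast proteoglycan gene Dcn stayed at or below 0.331 CPM in every library. The part of these differences in the results below was not tested. The gene counts did not check the knockout: Prkaa1 averaged 80.9 ± 2.00 CPM (SD, n = 4) in WT DMSO and 70.9 ± 2.95 in AMPK KO DMSO, and Prkaa2 averaged 4.74 ± 1.12 and 3.21 ± 0.970. In bulk RNA, fewer cells that express a gene and less RNA of it per cell cannot be told apart. When libraries were scaled by total count alone, the median of all genes moved by 0.10 to 0.14 on the log2 scale between the lines, and for torin1 against DMSO by 0.0995 in WT and 0.0614 in AMPK KO, so the differences below are relative to the bulk of genes.

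The alternative exon and the starts of these genes are shown first, since the transcript values below turn on them. Gfra1 (ENSMUSG00000025089) lies on the minus strand of chromosome 19, from 58235604 to 58455909 on GRCm38. Its coding transcripts differ in a 15-base exon at chr19:58392573-58392587, which is in capitals between the 30 bases that precede and follow it in the coding sequence.
Gfra1 alternative exon: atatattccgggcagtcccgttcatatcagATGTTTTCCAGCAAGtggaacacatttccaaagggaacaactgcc
The length of this exon is a multiple of 3, so both forms keep the same reading frame.

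Ret (ENSMUSG00000030110) lies on the minus strand of chromosome 6, from 118151745 to 118197718. Its long and short coding transcripts share 3189 coding bases and then end differently. The last 30 shared bases are in lower case, and the end of each form after them is in capitals. Both ends open with the bases GG and differ after them.
Ret long form: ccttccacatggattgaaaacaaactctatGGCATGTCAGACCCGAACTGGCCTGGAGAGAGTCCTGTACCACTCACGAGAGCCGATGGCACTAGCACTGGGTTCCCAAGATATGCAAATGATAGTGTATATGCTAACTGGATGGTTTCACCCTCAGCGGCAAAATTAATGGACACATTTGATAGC
Ret short form: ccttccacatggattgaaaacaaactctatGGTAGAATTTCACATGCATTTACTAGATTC

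Gdnf (ENSMUSG00000022144) lies on the plus strand of chromosome 15, from 7810846 to 7837575, and Gfra2 (ENSMUSG00000022103) on the plus strand of chromosome 14, from 70890120 to 70979838. Promoter windows from RefSeq (GRCm38.p6), 250 bases before to 50 bases after a transcript start, matched Gfra1 with 1 window and Gdnf with 2. They are shown because both genes rose with torin1 in either line. The Gfra1 window is chr19:58455349-58455648 on the minus strand, and the Gdnf window that held a motif is chr15:7809798-7810097 on the plus strand, where the motif is in capitals.
Gfra1 promoter window: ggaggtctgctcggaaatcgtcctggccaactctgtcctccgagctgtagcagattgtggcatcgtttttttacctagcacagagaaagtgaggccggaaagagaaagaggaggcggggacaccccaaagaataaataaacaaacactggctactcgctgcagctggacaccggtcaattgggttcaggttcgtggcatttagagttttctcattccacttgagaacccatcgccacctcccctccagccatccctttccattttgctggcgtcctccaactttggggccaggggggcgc
Gdnf promoter window: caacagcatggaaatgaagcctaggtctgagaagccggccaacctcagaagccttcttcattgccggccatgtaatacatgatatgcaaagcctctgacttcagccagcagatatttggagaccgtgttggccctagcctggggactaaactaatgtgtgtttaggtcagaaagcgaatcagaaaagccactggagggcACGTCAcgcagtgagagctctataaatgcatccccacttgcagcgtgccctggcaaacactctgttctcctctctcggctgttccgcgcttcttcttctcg
Both strands were searched for CACGTG, the E-box core bound by TFEB and related factors, for TCACGTG, which contains that core, for TCATGTG and for TGACGT, the core of the cAMP response element. The Gfra1 window held none of them, nor did the other Gdnf window at chr15:7813477-7813776. Neither Gdnf window covers chr15:7810846, where the single Gdnf transcript in the deposited data starts. The first Gdnf window held TGACGT once, read on the opposite strand from base 200. Of 32544 promoter windows of this length, 7.55% held TGACGT, 7.17% CACGTG, 3.79% TCACGTG and 3.79% TCATGTG, so the match is a description of the window and nothing more.

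Gfra1, the GDNF receptor, was low in DMSO in both lines. Its CPM in WT DMSO at passages 12, 13, 14 and 15 was 2.95, 1.24, 1.54 and 0.865. In AMPK KO DMSO at passages 16, 17, 18 and 19 it was 1.74, 2.17, 1.62 and 1.80. The lines overlapped, with means of 1.65 ± 0.910 and 1.83 ± 0.237 CPM (SD, n = 4), and the spread between WT libraries was the wider.

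With MK-8722, the 4 WT libraries held 15.8, 8.53, 8.75 and 7.85 CPM of Gfra1, all above every DMSO library. The fitted difference was 6.09-fold (log2 2.61, SE 0.34), which restates the reason the gene was chosen. In this comparison 10.0% of all genes tested were called higher, where a call needs both a change of 1.2-fold or more and an adjusted p below 0.05, and 13.7% had all MK-8722 libraries above all DMSO libraries. In AMPK KO the MK-8722 libraries held 1.62, 2.36, 1.74 and 2.93 CPM, overlapping DMSO, with a fold of 1.18 (log2 0.24, SE 0.37). At the same passage the ratio of MK-8722 to DMSO ran from 5.34 to 9.08 in WT and from 0.934 to 1.63 in AMPK KO. Markers of other cells also moved with MK-8722 in WT. The summed level of 4 endothelial markers was 0.807 to 1.21 CPM in DMSO and 4.36 to 8.53 with MK-8722, most of it Kdr, with Tie1 at most 0.0389 CPM, and that of 4 macrophage markers 1.98 to 2.85 and 3.14 to 4.67, with Ptprc at most 0.0614 and Adgre1 at 0. The summed level of 5 neuron markers, most of it Tubb3, was lower, at 87.3 to 115.0 CPM in DMSO and 54.4 to 64.9 with MK-8722. Their part in the Gfra1 difference was not tested.

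With torin1, Gfra1 rose in both lines. The 4 WT libraries held 20.98, 6.57, 11.5 and 8.99 CPM, and the 4 AMPK KO libraries 7.56, 6.45, 5.50 and 6.14, each above every DMSO library of its line. The rise was 7.15-fold in WT (log2 2.84, SE 0.34, adjusted p = 1.2e-07, edgeR's quasi-likelihood test with Benjamini-Hochberg adjustment over all genes tested). In AMPK KO it was 3.50-fold (log2 1.81, SE 0.34, adjusted p = 7.1e-05 by edgeR). These comparisons share their DMSO libraries with those of MK-8722. In WT the torin1 libraries overlapped the MK-8722 libraries, with means of 12.0 ± 6.31 and 10.2 ± 3.71 CPM, while in AMPK KO they lay above all MK-8722 libraries.

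Markers of other cells moved with torin1 too. The summed level of 5 epithelial markers was 1.44 to 2.41 CPM with DMSO and 3.13 to 5.24 with torin1 in WT, and 3.21 to 4.79 and 5.62 to 6.87 in AMPK KO, with Cldn4 at most 0.0665 CPM. The endothelial markers were at 1.84 to 3.81 CPM with torin1 in WT, above their DMSO range, and in AMPK KO at 1.54 to 2.07 with DMSO and 2.13 to 3.07 with torin1. In AMPK KO alone the neuron markers were lower with torin1 without overlap, at 82.5 to 95.1 and 54.4 to 68.2 CPM, and 4 skeletal muscle markers were higher, at 1.83 to 2.16 and 2.78 to 3.35, with Myod1 at most 0.0389 and Myog at most 0.0351 CPM in any library. Their part in the torin1 responses of Gfra1, Ret and Gdnf was not tested.

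The torin1 response of Gfra1 was smaller in AMPK KO than in WT by 1.03 on the log2 scale (SE 0.48), a difference that did not pass (adjusted p = 0.19, edgeR). With each passage entered as a block within its line, the difference was -1.04 with an SE of 0.24 and passed (edgeR adjusted p = 0.0047). Ratios of torin1 to DMSO at the same passage ran from 5.28 to 10.4 in WT and from 2.97 to 4.35 in AMPK KO, without overlap. Genes called for a difference in torin1 response between the lines made up 7.07% of those tested.

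**Figure D1:**
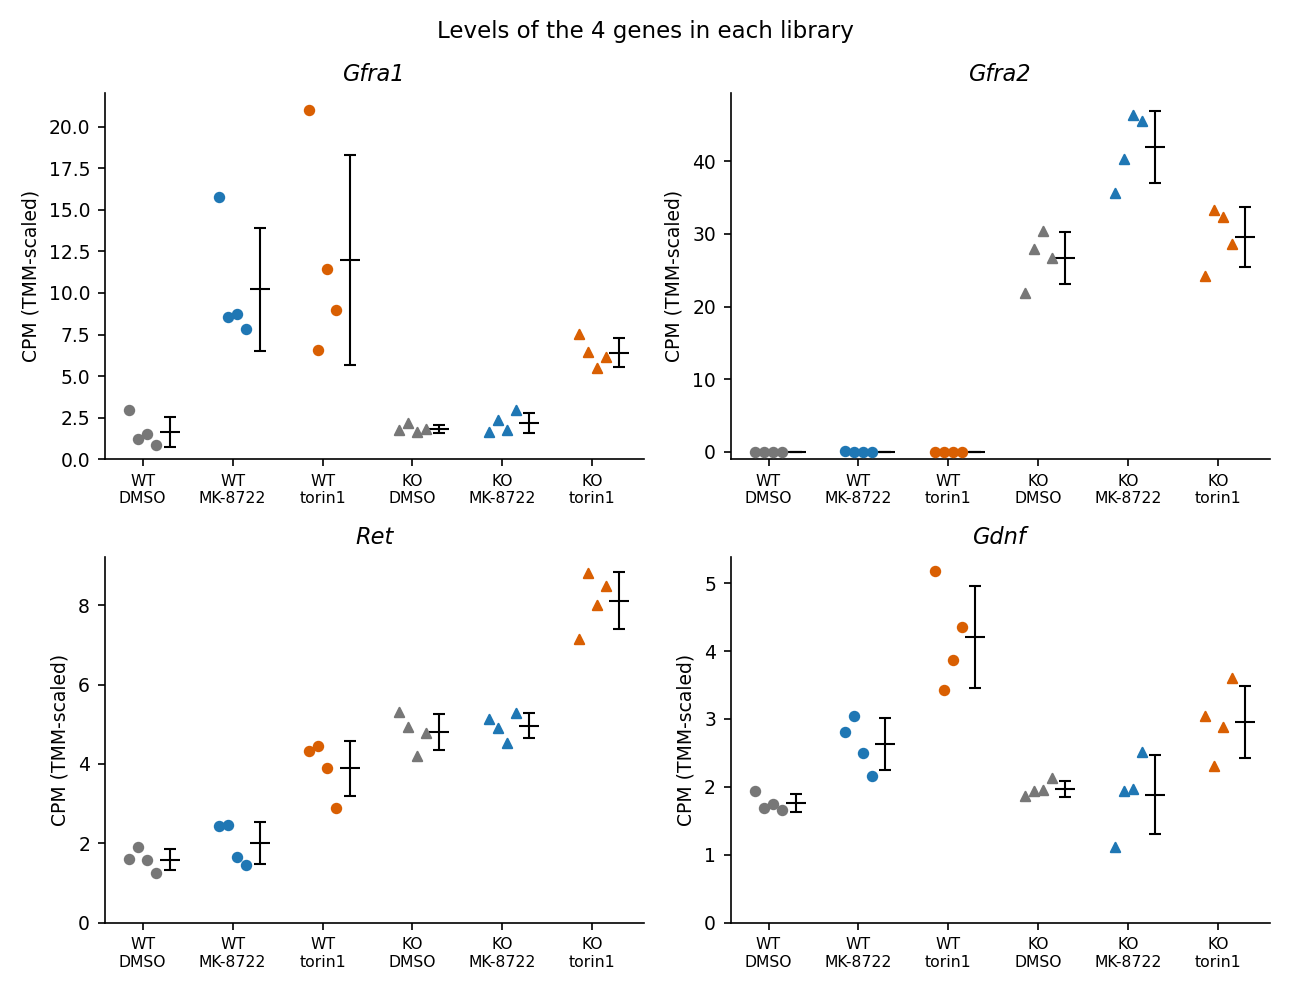
Levels of the 4 genes in CPM for each of the 24 libraries by group, with points in order of passage from left to right and bars for the mean ± SD of 4 libraries. Gfra1 lies at 7.85 to 15.8 CPM in WT with MK-8722 and at 1.62 to 2.93 in AMPK KO with MK-8722, and Gfra2 lies at or near 0 in all WT libraries.

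Gfra2, the neurturin receptor, was found in the AMPK KO line alone, which is why it was chosen. In AMPK KO DMSO its CPM was 21.9, 28.0, 30.4 and 26.7 at passages 16 to 19. The WT DMSO libraries had 0 counts in all 4, and among the other 8 WT libraries 1 with MK-8722 had 2 counts and 1 with torin1 had 1 count. Summed over the 4 libraries, 3409 counts in AMPK KO DMSO stood against 0, which is at least 1028-fold higher against a floor of 3 counts over the WT group. The summed ratio was 2277 with MK-8722 (5411 against 2 counts, exact 95% interval 630 to 18804) and 3681 with torin1 (3910 against 1 count, 660 to 145446), where the intervals cover counting error only. Per unit of length Gfra2 was the most abundant of the 4 genes in AMPK KO DMSO, with 15.2 ± 2.05 TPM (transcripts scaled by length and library) against 1.66 ± 0.185 for Ret and 0.897 ± 0.222 for Gfra1.

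Within AMPK KO, Gfra2 was higher with MK-8722. The 4 libraries held 35.6, 40.4, 46.3 and 45.6 CPM, above every DMSO library, a fold of 1.57 (log2 0.65, SE 0.11) that is given as a description. MK-8722 called few genes in this line: 0.866% were called higher, and 6.10% had all MK-8722 libraries above all DMSO libraries. At the same passage the ratio was 1.44 to 1.71. With torin1 Gfra2 held 24.1, 33.3, 32.4 and 28.6 CPM, overlapping DMSO, and the difference of 0.15 on the log2 scale (SE 0.12) did not pass (adjusted p = 0.29, edgeR). Torin1 libraries lay below all MK-8722 libraries, with a log2 difference of -0.50 (SE 0.11). The order of the levels of Gfra1 and Gfra2 across the drugs thus differed in AMPK KO, Gfra1 being highest with torin1 and Gfra2 with MK-8722.

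Ret, the signalling kinase, was higher in AMPK KO than in WT under each treatment. WT DMSO libraries held 1.60, 1.90, 1.58 and 1.26 CPM, and AMPK KO DMSO libraries 5.31, 4.92, 4.20 and 4.78. The groups did not overlap, with a fold of 3.02 (log2 1.60, SE 0.16) given without a test, in a comparison where 33.3% of genes had all AMPK KO libraries above all WT libraries. With MK-8722 Ret held 2.45, 2.45, 1.66 and 1.45 CPM in WT and 5.14, 4.91, 4.54 and 5.27 in AMPK KO, each range overlapping its DMSO range. The log2 difference from DMSO was 0.34 (SE 0.17) in WT and 0.05 (SE 0.14) in AMPK KO.

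Torin1 raised Ret in both lines. WT libraries held 4.32, 4.44, 3.90 and 2.90 CPM, a 2.46-fold rise (log2 1.30, SE 0.16, adjusted p = 2.4e-07, edgeR). AMPK KO libraries held 7.16, 8.82, 7.99 and 8.49 CPM, a 1.69-fold rise (log2 0.76, SE 0.14, adjusted p = 5.5e-05, edgeR). The response was smaller in AMPK KO by 0.54 on the log2 scale (SE 0.21), which did not pass (edgeR adjusted p = 0.11) and passed with passage as a block (SE 0.14, edgeR adjusted p = 0.011). The highest WT group, torin1, overlapped the lowest AMPK KO group, DMSO, at 3.89 ± 0.699 and 4.80 ± 0.460 CPM.

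RET is known from neural crest derivatives, so their markers are given beside it. The summed level of the neural crest and glia markers was 6.58 to 10.7 CPM in WT, while AMPK KO libraries held 12.8 to 22.4, most of it Erbb3. Sox10, a defining factor of neural crest and glia, stayed at or below 0.0903 CPM in every library. Between the lines in DMSO the epithelial and endothelial ranges given above were also higher in AMPK KO without overlap, and that of the muscle markers was lower, at 2.45 to 3.69 CPM in WT. The part of these markers in the differences of Ret and Gfra2 between the lines was not tested.

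Gdnf, the ligand gene, was detected in every library at a low level. WT DMSO libraries held 1.95, 1.68, 1.76 and 1.66 CPM, and AMPK KO DMSO libraries 1.86, 1.94, 1.95 and 2.13, which overlapped. With MK-8722 the WT libraries held 2.81, 3.04, 2.49 and 2.16 CPM, all above DMSO, a 1.49-fold difference (log2 0.57, SE 0.19) described without a test. In AMPK KO, MK-8722 libraries held 1.11, 1.94, 1.96 and 2.52 CPM and spanned the DMSO range (log2 -0.06, SE 0.19).

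Torin1 raised Gdnf in both lines as well. WT libraries held 5.18, 3.43, 3.87 and 4.35 CPM, a 2.38-fold rise (log2 1.25, SE 0.18, adjusted p = 2.8e-06, edgeR). AMPK KO libraries held 3.04, 2.31, 2.89 and 3.60 CPM, a rise of 0.59 on the log2 scale (SE 0.18, adjusted p = 0.0086, edgeR). The response was smaller in AMPK KO by 0.67 on the log2 scale (SE 0.26), short of the threshold (edgeR adjusted p = 0.11), and past it with passage as a block (SE 0.23, edgeR adjusted p = 0.043).

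Of the members, Gfra1, Ret and Gdnf were called higher with torin1 in both lines, and Gfra2 in neither, since it could not be tested in WT and did not pass in AMPK KO. Torin1 calls were common: 26.6% of all genes tested were called higher in WT and 25.9% in AMPK KO, and 27.1% and 30.1% had all torin1 libraries above all DMSO libraries. The counts behind these values were small, 24 to 656 per library for Gfra1, 35 to 294 for Ret and 37 to 162 for Gdnf, against 717 to 1539 for Gfra2 in AMPK KO.

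**Figure D2:**
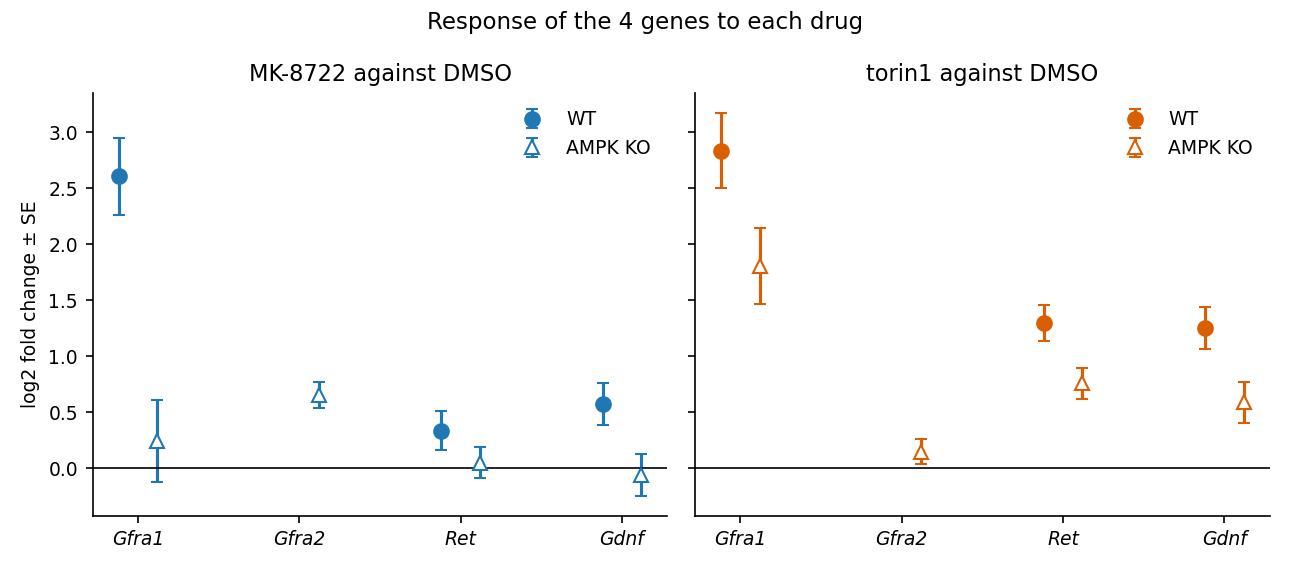
Fitted log2 fold change (points) ± SE (bars) of each gene for MK-8722 and torin1 against DMSO, with filled circles for WT and open triangles for AMPK KO, and no point for Gfra2 in WT, where it was at 0 to 2 counts. Gfra1 is at 2.61 with MK-8722 and 2.84 with torin1 in WT, against 0.24 and 1.81 in AMPK KO.

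Levels also moved with passage in WT. Gfra1 was highest at passage 12 in all 3 WT groups, at 2.42, 1.88 and 2.33 times the mean of the later passages with DMSO, MK-8722 and torin1. The fitted slope was -0.36 per passage on the log2 scale (SE 0.083, adjusted p = 0.017, edgeR), in a fit where 2.63% of genes fell with passage and 4.42% changed in either direction. This fit took the 3 libraries of 1 passage as independent, although libraries of the same passage deviated together (median correlation 0.129). Each line had only 4 passages, so the p-values of slopes can be too small. Without the passage 12 and 16 libraries the slope was 0.031 (edgeR adjusted p = 0.94), so it rested on them. It was also lost, with an adjusted p of up to 0.14 by edgeR, when WT DMSO replicate 4, WT MK-8722 replicate 2 or WT torin1 replicate 4 was left out.

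Ret fell by 0.20 per passage in WT on the log2 scale (SE 0.047, adjusted p = 0.021, edgeR), with libraries of 1 passage again taken as independent. That call was lost without WT DMSO replicate 3, WT MK-8722 replicate 2, WT MK-8722 replicate 3 or WT torin1 replicate 1, with an adjusted p of up to 0.090 by edgeR. The Gdnf slope of -0.09 (SE 0.057) did not pass (adjusted p = 0.43, edgeR). In AMPK KO none of the 4 genes passed: the slopes were 0.01 for Gfra1 (SE 0.093), 0.10 for Gfra2 (SE 0.035), -0.0019 for Ret (SE 0.038) and 0.16 for Gdnf (SE 0.057), with adjusted p from 0.32 to 0.995 by edgeR, and 0.145% of all genes were called in that line. Gfra2 was lowest at passage 16 in all 3 groups.

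**Figure D3:**
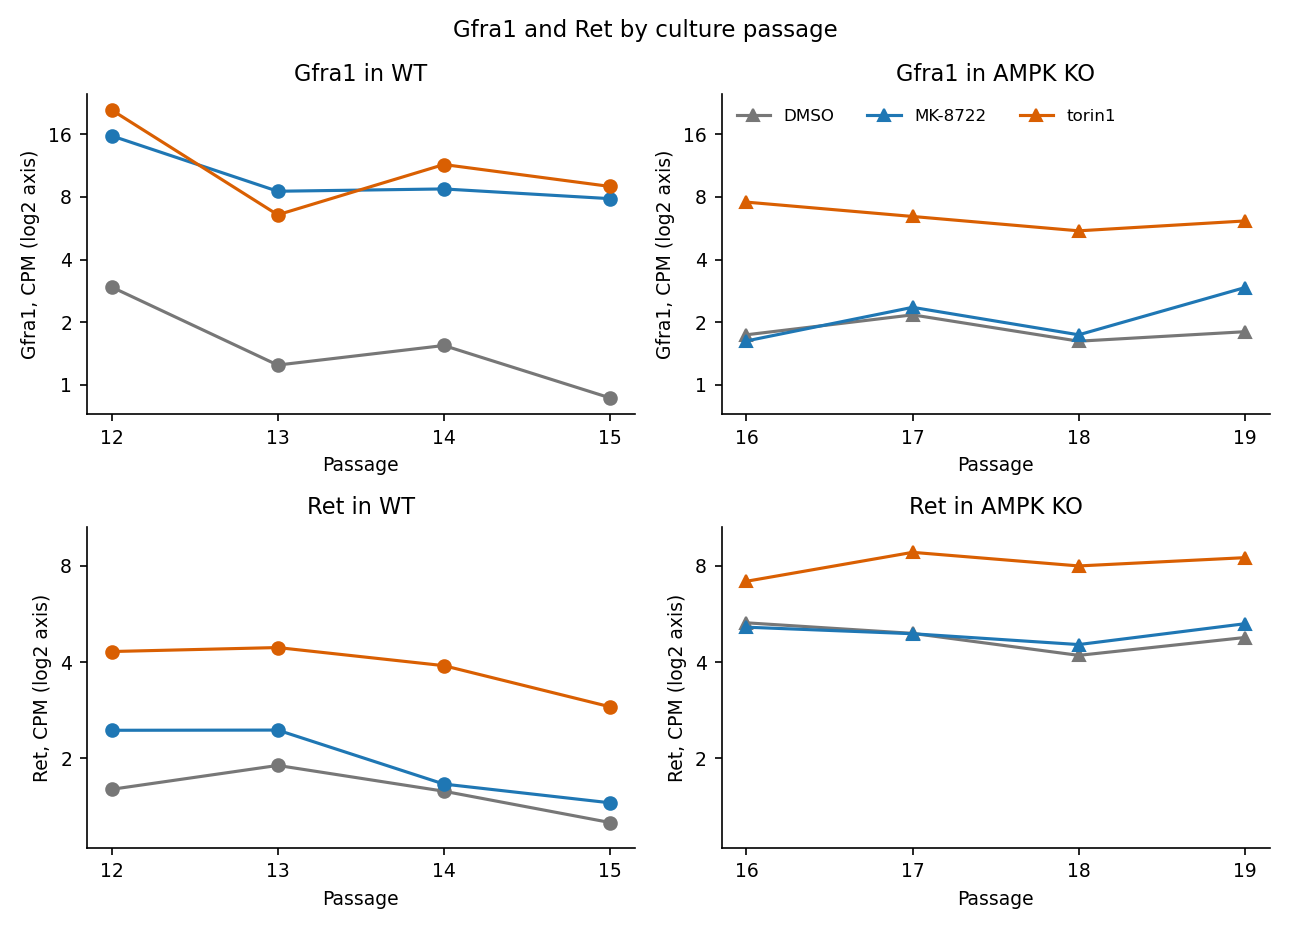
Gfra1 and Ret in CPM, on a log2 axis, against passage number in the 24 libraries, coloured by treatment, with WT at passages 12 to 15 and the AMPK KO line at 16 to 19. Each WT treatment has its highest Gfra1 at passage 12, at 2.95, 15.8 and 20.98 CPM.

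The forms of each gene were read from the transcript estimates, which did not resolve those of Gfra1 in every group. Of 9 Gfra1 transcripts in the table, 6 reached 10 counts in some library, as did 3 of 3 for Gfra2, both for Ret and the single Gdnf transcript, ENSMUST00000022744. Gfra1 forms with the 15-base exon, ENSMUST00000026076, ENSMUST00000152507 and ENSMUST00000169850 (coding length 1404 bases), and the form without it, ENSMUST00000129100 (1389 bases), were present together. Their summed levels with and without the exon were 1.97 ± 0.966 and 1.47 ± 0.371 TPM in WT with MK-8722, 2.87 ± 1.55 and 1.51 ± 0.827 in WT with torin1, and 1.22 ± 0.287 and 1.36 ± 0.264 in AMPK KO with torin1. Forms with the exon made up 55.6 ± 10.6% of these coding forms in WT with MK-8722, 64.9 ± 8.17% in WT with torin1 and 47.4 ± 8.23% in AMPK KO with torin1 (SD, n = 4). In the other 3 groups single libraries ran from 11.5 to 100%, which is too wide to read a share.

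A short transcript from the 5′ end of Gfra1, ENSMUST00000131877 (841 bases, 3 exons, chr19:58453352-58455909), took 28.9 ± 6.78% of the gene's TPM in WT with MK-8722, 27.0 ± 7.28% in WT with torin1 and 10.9 ± 1.76% in AMPK KO with torin1. ENSMUST00000140141, annotated as a target of nonsense-mediated decay, had 0 to 15 counts. Part of the Gfra1 gene total was thus assigned to a transcript that covers the start of the gene alone. Its share of counts was smaller than its share of TPM. In WT with MK-8722 the short transcript had 11 to 25 counts per library, where the gene had 200 to 431. For Gfra2, the full form ENSMUST00000022699 (coding length 1392) took 73.4 to 74.3% of the gene on average in the 3 AMPK KO groups, ENSMUST00000227697 (993) took 19.4 to 22.3% and ENSMUST00000227633 (927) took 4.35 to 6.28%. The differences between treatments in these Gfra2 shares were within the SD of the libraries. For Ret, the short form ENSMUST00000088790 averaged 75.2 to 81.0% and the long form ENSMUST00000032201 averaged 19.0 to 24.8% in all 6 groups while the gene's mean ran from 0.512 ± 0.0877 to 2.99 ± 0.211 TPM.

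**Figure D4:**
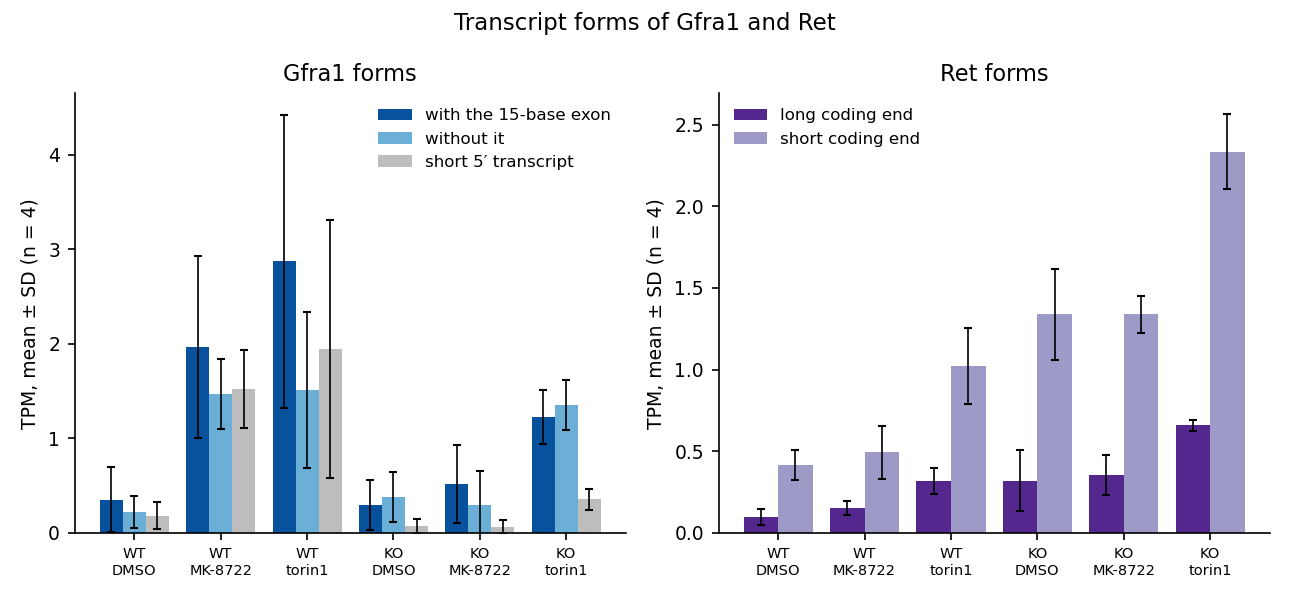
Mean TPM ± SD (4 libraries) by group for Gfra1 forms with and without the 15-base exon and its short 5′ transcript, and for the long and short Ret forms. The short Ret form exceeds the long form in every group, 0.415 against 0.0969 TPM in WT DMSO and 2.33 against 0.659 in AMPK KO with torin1.

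Further genes of the pathway were followed through 7 lists of 64 genes, of which 53 were tested. Between the lines in DMSO, 56.9% of all genes tested were called. Of the 53, 6 (Gdf15, Hoxa11, Hoxb5, Pax2, Rarb and Wt1) passed the filter on low counts through 1 line only, where they were high, and no call between the lines is given for them. Of the 47 that passed within each line, 7 were called higher and 25 lower in AMPK KO, against 27.5% and 27.3% of the 13973 genes that did so (54.9% in either direction). With MK-8722, 14 of 53 were called in WT (8 higher, 6 lower) and 4 in AMPK KO (3 higher, 1 lower), against 15.7% and 1.56% of all genes. The shares called lower with MK-8722 were 5.66% and 0.695%. With torin1, 30 of 53 were called in WT (15 higher, 15 lower) and 22 in AMPK KO (13 higher, 9 lower), against 47.6% and 43.5%, of which 21.1% and 17.6% were called lower. Both torin1 counts include Gdf15, whose change is given by level alone below. The response to MK-8722 differed between the lines for 8 of 53, against 12.8% of all genes, and that to torin1 for 6 of 53, against 7.07%.

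Of the other ligand genes, Nrtn and Artn were called lower with torin1 in WT, where 21.1% of all genes were, and Artn in AMPK KO, where 17.6% were. Artn and Nrtn were called higher in AMPK KO in DMSO, as 27.5% of genes passing in each line were. Artn, encoding artemin, averaged 0.868 ± 0.129 CPM in WT DMSO and 2.06 ± 0.457 in AMPK KO DMSO (log2 1.25, SE 0.19, adjusted p = 4.3e-06, edgeR). Nrtn, encoding neurturin, the ligand of GFRA2, averaged 0.938 ± 0.172 and 1.84 ± 0.161 CPM (log2 0.97, SE 0.20, adjusted p = 0.00018, edgeR). Gdf15, encoding a stress-induced ligand that acts through GFRAL, averaged 0.193 ± 0.126 CPM in WT DMSO, 2 to 11 counts per library, and 2.20 ± 0.744 in AMPK KO DMSO. With torin1 in AMPK KO, Gdf15 held 0.0833 ± 0.0286 CPM, 2 to 4 counts per library, against 37 to 99 with DMSO. It is given by level alone, since it passed the filter on low counts only through AMPK KO groups where it was high. Artn fell by 0.64 on the log2 scale with torin1 in AMPK KO (edgeR adjusted p = 0.0048). In WT torin1 lowered Nrtn by a log2 difference of -0.78 (edgeR adjusted p = 0.0056) and Artn by -0.56 (edgeR adjusted p = 0.033). The call of Artn was lost when libraries were scaled by total count alone. Gdf15 had 0 to 4 counts per library with torin1 in WT, against 2 to 11 with DMSO. Pspn, encoding persephin, had at most 3 counts in any library.

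Among the receptors, Gfra4, the persephin receptor, was also higher in AMPK KO, at 0.376 ± 0.129 CPM in WT DMSO and 3.13 ± 0.527 in AMPK KO DMSO (log2 3.03, SE 0.22, adjusted p = 1.2e-11, edgeR). It rose with torin1 by 1.30 on the log2 scale in WT (edgeR adjusted p = 7.1e-05) and by 0.65 in AMPK KO (edgeR adjusted p = 0.0016). MK-8722 differences of -0.45 in WT and 0.24 in AMPK KO did not pass. Gfra3 had at most 1 count per library, and Gfral, the GDF15 receptor, had 0 in all.

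Of 6 co-receptors and binding partners, 2 were higher and 2 lower in AMPK KO in DMSO, beside 27.5% and 27.3% of genes passing in each line. Sorl1, a sorting receptor that binds GDNF and GFRA1, averaged 0.439 ± 0.0986 CPM in WT and 6.81 ± 1.16 in AMPK KO (log2 3.94, SE 0.17, adjusted p = 1.1e-15, edgeR), and Rap1gap, a GTPase-activating protein that binds RET, was 3.63-fold higher (log2 1.86). With torin1, 4 rose and 1 fell in WT, beside 26.6% and 21.1% of all genes. In AMPK KO, 2 rose and 2 fell, beside 25.9% and 17.6%. Of 16 adaptors tested, 1 was higher and 9 lower in AMPK KO in DMSO, beside the same shares, led by Grb10 (log2 -1.93), Gab2 (-1.36) and Dok1 (-1.17). Grb10, which binds activated RET, fell further with torin1 in AMPK KO (log2 -1.02, SE 0.096, adjusted p = 3.8e-09, edgeR).

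None of the 11 RET targets and feedback genes was called higher in AMPK KO in DMSO, and 6 were called lower, beside 27.5% and 27.3% of genes passing in each line. Spry2, an inhibitor of receptor kinase signalling, averaged 29.6 ± 2.60 CPM in WT and 10.3 ± 0.420 in AMPK KO (log2 -1.52, SE 0.10, adjusted p = 4.7e-12, edgeR), and Spry1 and Dusp6, a phosphatase of ERK, were lower by log2 differences of -1.03 and -1.01. These genes answer to many receptors other than RET. With MK-8722, 1 rose and 3 fell in WT, beside 10.0% and 5.66% of all genes, and 2 rose in AMPK KO, beside 0.866%. Etv5, a transcription factor gene induced by RET in the ureteric bud, averaged 46.5 ± 6.76 CPM with DMSO and 34.1 ± 6.63 with MK-8722 in WT, against 46.4 ± 4.56 and 72.6 ± 1.42 in AMPK KO, a difference between the lines of 1.10 on the log2 scale (SE 0.15, adjusted p = 2.5e-05, edgeR). Torin1 called 1 of the 11 higher and 2 lower in WT, beside 26.6% and 21.1% of all genes. In AMPK KO 2 were called higher and 1 lower, beside 25.9% and 17.6%. In torin1 response, 4 of the 11 differed between the lines, all higher in AMPK KO, a call that 4.15% of all genes received. Among them were Spry4 (log2 1.40, edgeR adjusted p = 0.00030) and Dusp6 (log2 1.03, edgeR adjusted p = 0.0076). Spry4 averaged 6.92 ± 1.05 CPM with DMSO and 3.20 ± 0.729 with torin1 in WT. In AMPK KO it averaged 3.67 ± 0.284 and 4.49 ± 0.320. Dusp6 averaged 32.6 ± 8.07 and 25.3 ± 7.76 CPM in WT, against 16.2 ± 1.09 and 25.7 ± 0.722 in AMPK KO.

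Of 10 upstream regulators of Gdnf that passed the filter within each line, known from kidney mesenchyme, 8 were lower and 1 higher in AMPK KO in DMSO, beside 27.3% and 27.5% of such genes, while Gdnf itself overlapped between the lines. Osr1 averaged 18.6 ± 0.669 CPM in WT and 0.516 ± 0.177 in AMPK KO, and Six2 13.0 ± 2.05 and 0.392 ± 0.0939, while Eya1 was 3.47-fold higher in AMPK KO. Given by level alone, Hoxa11 averaged 32.1 ± 4.22 CPM in WT and had 0 to 4 counts in AMPK KO, and Wt1 and Pax2 had 13 to 26 and 7 to 10 counts in AMPK KO against at most 1 and 0 in WT DMSO. Grem1, encoding a BMP antagonist that sustains Gdnf in the kidney, rose with MK-8722 in WT from 33.1 ± 9.03 to 88.3 ± 21.2 CPM (log2 1.41, SE 0.20, adjusted p = 8.0e-06, edgeR) and by 1.16 on the log2 scale with torin1 in WT (SE 0.20, adjusted p = 1.8e-05, edgeR). Of the regulators of Ret, Hoxb5 had 98 to 139 counts in AMPK KO DMSO and at most 1 in WT, given by level alone, while Sox10 did not pass the filter on low counts.

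**Figure D5:**
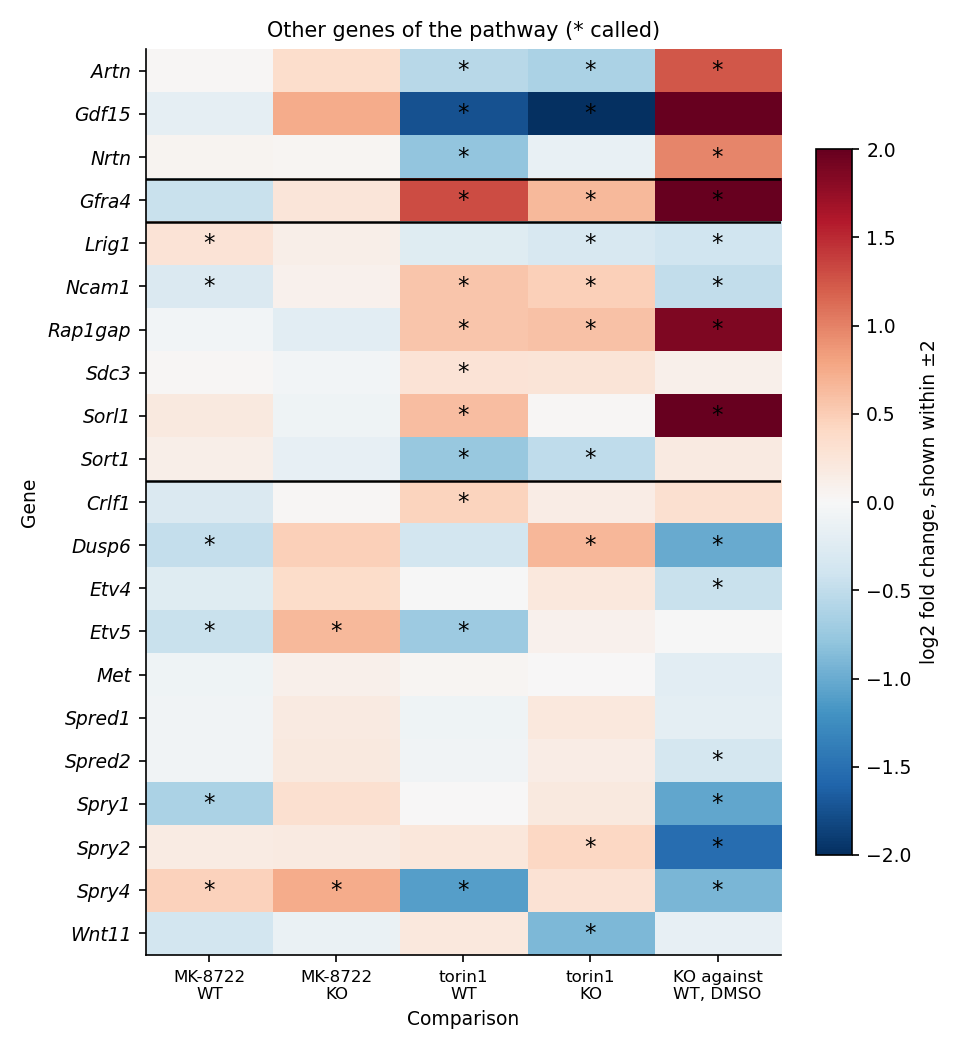
Fitted log2 fold change, clipped at ±2, of other ligand genes, Gfra4, co-receptors and RET targets (rows) in the comparisons of drugs and lines (columns), with an asterisk where a gene was called. Gdf15 carries no asterisk between the lines because it passed the filter through AMPK KO only. The Nrtn and Artn rows are negative for torin1 against DMSO in WT (-0.78 and -0.56). The asterisks of Gdf15 for torin1 are subject to the same filter and are not read as calls.

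The 5 tested genes on each side of Gfra1 and Gfra2 on their chromosomes were compared as well. Around Gfra1, 1 of 10 was called higher and 2 lower with MK-8722 in WT, beside 10.0% and 5.66% of all genes. Hspa12a, an HSP70 family gene, was the gene that rose (log2 0.76, SE 0.16, adjusted p = 0.00067, edgeR), and the adjacent gene Atrnl1 differed by 0.09 (SE 0.065). Around Gfra2, 2 of 10 were higher and 6 lower in AMPK KO in DMSO, with a median log2 difference of -0.57, beside 27.5% higher and 27.3% lower of the genes that passed within each line, as these 10 did. The nearest tested gene on either side did not share its pattern, though on 1 side that gene was far away. Dok2, 112 kb away, averaged 0.348 CPM in WT DMSO and 0.266 in AMPK KO DMSO, at 6 to 13 and 5 to 12 counts per library. Fndc3a, 1558 kb away, averaged 53.5 and 31.5 CPM.

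The genes most like Gfra1 were sought by Pearson r of log2 CPM over the 12 WT libraries, among 11075 tested genes with a mean of at least 1 CPM. They were Igf2r, encoding the mannose 6-phosphate receptor that carries enzymes to lysosomes (r = 0.987), the metallothionein gene Mt1 (0.979), Gpnmb, a lysosome-associated glycoprotein gene (0.977), the netrin receptor gene Neo1 (0.976) and the transcription factor gene Bhlhe41 (0.970). Within groups, after the group means were taken out, their r lay between 0.894 and 0.951. Gdnf came at rank 411 (r = 0.843) and Ret at rank 1455 (r = 0.659). For Gfra2 over the 12 AMPK KO libraries, among 11491 genes, the nearest were Chst11 (r = 0.932), Atp10a (0.926), Creb5 (0.911), Lamc1 (0.908) and Etv5 (0.908). Within groups their r lay between 0.840 and 0.924 except for Etv5, at 0.643. These libraries share treatments and passages, so the values describe likeness across 12 points and no more.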

How the data were processed

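Messenger RNA of 24 MEF cultures (6 groups of 4, grouped by the genotype and treatment labels) was sequenced paired-end. With the nf-core/rnaseq workflow, STAR and Salmon (GRCm38), the authors made the deposited tables, which hold estimated counts per gene and, for each library, estimated counts and TPM per transcript. Gene TPM values were summed here from the deposited transcript TPM. The columns mapped to no library numbered 0.

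Estimated counts were rounded to whole numbers, since the count model needs them. Genes were filtered with filterByExpr of edgeR (4.0.16, R 4.3.3; minimum count 10), which kept 15828 of 55487 genes and 99.96% of counts, and libraries were scaled by TMM. The quasi-likelihood test was fitted with 6 group means over all 24 libraries, two-sided, with Benjamini-Hochberg adjustment over all genes tested. Calls needed a change of 1.2-fold or more and an adjusted p below 0.05. Passage slopes used passage centred within each line and the same limit on the adjusted p, with libraries of 1 passage taken as independent. CPM values are TMM-scaled, with a prior count of 2 where logged. Gene positions came from the GENCODE annotation of GRCm38, and promoter windows from RefSeq. DESeq2 (1.42.0) was an alternative. Tables were handled in Python 3.11.15 with pandas 2.3.3. The scripts were tested on simulated data.

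The 4 genes, the pathway lists and the marker lists were chosen with earlier results of these data known. Besides the 4 genes and all other ligands and receptors, pathway genes were named where they were called with a fold change of at least 2, at most 3 per list and direction, with the 5 genes most like Gfra1 and Gfra2 and 5 neighbours on each side. Nothing in the labels says that libraries came from separate derivations of cells, so p-values measure the spread between these cultures. Libraries of 1 group differed from each other beyond sampling noise in all 36 pairs (chi-square per degree of freedom 3.37 to 24.9). Same-numbered replicates did not deviate together (correlation of deviations -0.196 to 0.250, median 0.024), so numbers were not used as pairs. Libraries of the same passage in a line deviated together more (24 pairs, -0.011 to 0.367, median 0.129) than libraries of other passages (72 pairs, median -0.036), and passage as a block was among the alternatives. A gene of the marker and pathway lists is not reported here.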

Additional observations from a re-analysis of the deposited data

Results flagged for a closer look

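In a group of 4 libraries, the Gfra1 level of WT MK-8722 replicate 2, which is the library of passage 12, was 15.8 CPM and stood far from the others, which lay between 7.85 and 8.75 CPM. Its gap to the nearest library took 0.887 of the group's range, above Dixon's critical value for 4 values. It was the only library set apart in this way among 21 groups of values checked for the 4 genes, and chance alone sets apart about 1 group in 20. Passage 12 libraries also held the highest Gfra1 in WT DMSO and WT torin1.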

How the results depend on the processing

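The calls of Gfra1, Ret and Gdnf with torin1 in both lines held under all 11 alternatives and with each of the 24 libraries left out. The torin1 response in AMPK KO against WT passed with passage as a block for Gfra1 (-1.04 on the log2 scale), Ret (-0.54) and Gdnf (-0.67), and for Gfra1 also without passages 12 and 16 (-1.26). Passage slopes were the least stable values. The Gfra1 slope in WT, with the replicate number as a block, was -0.42 and no longer passed (edgeR adjusted p = 0.057), was 0.031 without passages 12 and 16, and ran from -0.40 to -0.27 with single libraries left out. That of Ret in WT ran from -0.23 to -0.17 with single libraries left out. In AMPK KO, where no slope passed, the sign turned for Gfra1 with scaling by library size alone (-0.0042), the replicate block (-0.043), without passages 12 and 16 (-0.0029) and over the fits without single libraries (-0.066 to 0.068), for Ret with the replicate block (0.045), DESeq2 (0.00077) and single libraries left out (-0.034 to 0.022), and for Gfra2 without passages 12 and 16 (-0.020). The replicate block changed no other call of the 4 genes. The causes were not tested.

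Counts of pathway genes fell with a fold change of 1.5 in place of 1.2, from 14 to 4 for MK-8722 in WT, 4 to 2 in AMPK KO, 30 to 15 for torin1 in WT, 22 to 13 in AMPK KO and 6 to 3 for the difference in torin1 response, since fewer genes can pass. The passage block raised them to 9 for MK-8722 in AMPK KO, 17 for the difference in MK-8722 response and 11 for that in torin1 response. Without single libraries the MK-8722 counts ran from 9 to 14 in WT and from 2 to 5 in AMPK KO. The 6 neighbours called with MK-8722 in WT became 3 with a length offset or with the compared libraries alone, and 2 to 6 without single libraries. The bound on Gfra2 between the lines, 10.0 on the log2 scale, was 9.63 without passages 12 and 16 and 9.50 to 10.1 without single libraries. Low counts of Gfra1, Ret and Gdnf limit the precision of their small differences and of transcript shares.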
